A study of Mus musculus with 12 samples.

Results

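Major urinary proteins are small secreted lipocalins, barrel-shaped carriers of hydrophobic molecules, which mouse liver makes in large amounts and sheds through the kidney into urine, where they hold and release pheromones. Their genes form a single tandem array on mouse chromosome 4. The central genes of the array are near-identical copies of each other, whereas those at its ends have diverged. In liver the family is known for higher expression in males, driven by pulsatile growth hormone acting through STAT5B, with testosterone, thyroid hormone and glucocorticoids as further inputs. The results below concern the 6 peripheral genes *Mup3*, *Mup4*, *Mup5*, *Mup6*, *Mup20* and *Mup21*, found by name in the deposited table of 25676 genes. That table holds 22 Mup genes, and the summed level of the other 16 served as a reference.

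Liver RNA was sequenced from 12 C57BL/6 mice aged 3 to 4 months, 3 males and 3 females of each of 2 genotypes. One genotype was wild type (WT) and the other, labelled Foxa3-Cre YAP1 KO (KO below), lacks the transcriptional co-activator YAP1 in cells that have expressed Cre from *Foxa3*. *Foxa3* is active in early endoderm, so the deletion can reach both hepatocytes and bile duct cells, and the gene is absent from before birth. The labels do not say whether the WT mice carried Cre or floxed alleles.

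Values are TPM as deposited by the authors, a transcript level per unit of length with every library scaled to a total of 1000000. *Yap1*, the targeted gene, had a mean of 32.1 TPM in WT males, 26.9 in WT females, 1.40 in KO males and 2.65 in KO females. The 7 hepatocyte markers measured, *Alb* among them, summed to 80345 to 94759 TPM in WT males and 63130 to 86473 TPM in KO males, which overlap, and to 103652 to 108529 TPM in WT females and 72477 to 87229 TPM in KO females, which do not. Over both sexes 1 of the 7 was called higher and 2 lower (0 and 3 after median-of-ratios rescaling), among them *Ttr*, the gene of the thyroid hormone carrier transthyretin (-1.10, limma adjusted p = 3.34e-04). Markers of other cell types also moved with genotype. The summed level of 7 bile duct cell markers was 37.5 to 67.9 TPM in WT and 264 to 729 TPM in KO, mostly from *Spp1* (osteopontin, also made by other cells), while *Epcam* was lower (-0.35, limma adjusted p = 0.0312). The summed level of 6 macrophage markers was 47.2 to 156 TPM in WT and 214 to 426 TPM in KO, and that of 8 stellate cell and fibroblast markers was 61.2 to 168 TPM in WT and 176 to 424 TPM in KO. Over both sexes all 6 macrophage markers were called higher, and 6 of the 8 stellate cell and fibroblast markers were higher and 0 lower. After median-of-ratios rescaling the latter counts were 4 and 1, the 1 being *Lrat*, a retinol-esterifying enzyme of stellate cells (-0.54, limma adjusted p = 0.0671 before rescaling and -0.91, 0.00335 after it). The part of these cells in the results below was not tested, and in bulk liver fewer cells of a type and less RNA per cell cannot be told apart. With limma on log2(TPM + 1), 54.9% of the 12278 tested genes differed between KO and WT over both sexes at an adjusted p under 0.05, 4.82% lower and 50.1% higher, and the median difference of all tested genes was 0.35. Of the genes called, 91.2% were higher over both sexes, 93.9% in males and 86.2% in females, and after median-of-ratios rescaling, which brings that median to -0.04, these shares were 52.3%, 57.0% and 57.9%. The members' directions below held under both rescalings tried.

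The members lie at both ends of the array. On GRCm38 (GENCODE annotation), *Mup4* (chr4:59956804-59960710, minus strand) and *Mup6* (chr4:59964294-60007274, plus strand) come first. *Mup5* (chr4:61831319-61835233), *Mup20* (chr4:62050234-62054158), *Mup3* (chr4:62083476-62087342) and *Mup21* (chr4:62147932-62150863), all on the minus strand, come last, with the 16 other genes between. All 22 are annotated as protein-coding. Coding sequences of the 16 central genes were 96.3% to 100% identical in pairs, with a median of 99.1%. A peripheral and a central gene shared between 82.3% and 91.5%. Among the members themselves *Mup3* and *Mup21* were the closest pair, at 96.3%.

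The same 60 bases of the coding sequence show how far each member has moved from *Mup22*, the Mup gene with the highest mean level over the 6 WT livers (in WT males alone *Mup7* had the higher mean, 34169 against 32623 TPM). Capitals mark bases that differ from *Mup22* in this stretch, which holds no intron and is read in the direction of transcription from GRCm38.
Mup22: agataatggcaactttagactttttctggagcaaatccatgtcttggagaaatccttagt
Mup20: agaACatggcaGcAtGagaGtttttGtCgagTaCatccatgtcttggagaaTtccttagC
Mup5: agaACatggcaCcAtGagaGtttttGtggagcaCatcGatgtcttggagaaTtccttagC
Mup4: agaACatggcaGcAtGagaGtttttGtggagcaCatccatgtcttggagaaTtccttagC
Mup6: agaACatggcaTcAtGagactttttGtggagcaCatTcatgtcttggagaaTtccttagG
Mup3: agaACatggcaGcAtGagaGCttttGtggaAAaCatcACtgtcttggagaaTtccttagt
Mup21: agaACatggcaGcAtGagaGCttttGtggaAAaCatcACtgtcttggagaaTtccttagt
The stretches lie at chr4:60820866-60820925 (*Mup22*), chr4:62053498-62053557 (*Mup20*), chr4:61834573-61834632 (*Mup5*), chr4:59960057-59960116 (*Mup4*), chr4:60004034-60004093 (*Mup6*), chr4:62086818-62086877 (*Mup3*) and chr4:62150213-62150272 (*Mup21*). *Mup4* and *Mup6* differ from *Mup22* at 10 of the 60 bases, *Mup5* at 11, *Mup20* at 12, and *Mup3* and *Mup21* at 14. *Mup3* and *Mup21* have the same letters here.

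How well a read can be assigned follows from how much of a transcript recurs elsewhere. Of the 100-base stretches of annotated transcripts, *Mup4* and *Mup6* shared 0% with any other gene, *Mup5* 1.33%, *Mup3* 2.94% and *Mup21* 4.50%. For the 16 central genes the share was 59.4% to 100%, with a median of 85.7%. *Mup20* was the exception among the members at 38.8%, and all of these stretches recurred in the pseudogene *Mup-ps19*, which was not analysed here, and in no Mup gene of the table. With 50-base stretches the share rose to 50.5% for *Mup20* and lay between 4.33% and 19.3% for the other members. The length of the reads is not given in the sources used here. The level of *Mup20* can therefore include reads of that pseudogene. Of its 50-base stretches 3.07% recurred in a central Mup gene, and how many reads this adds in WT females, where the central genes are far more abundant than *Mup20*, was not tested.

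**Figure D1:**
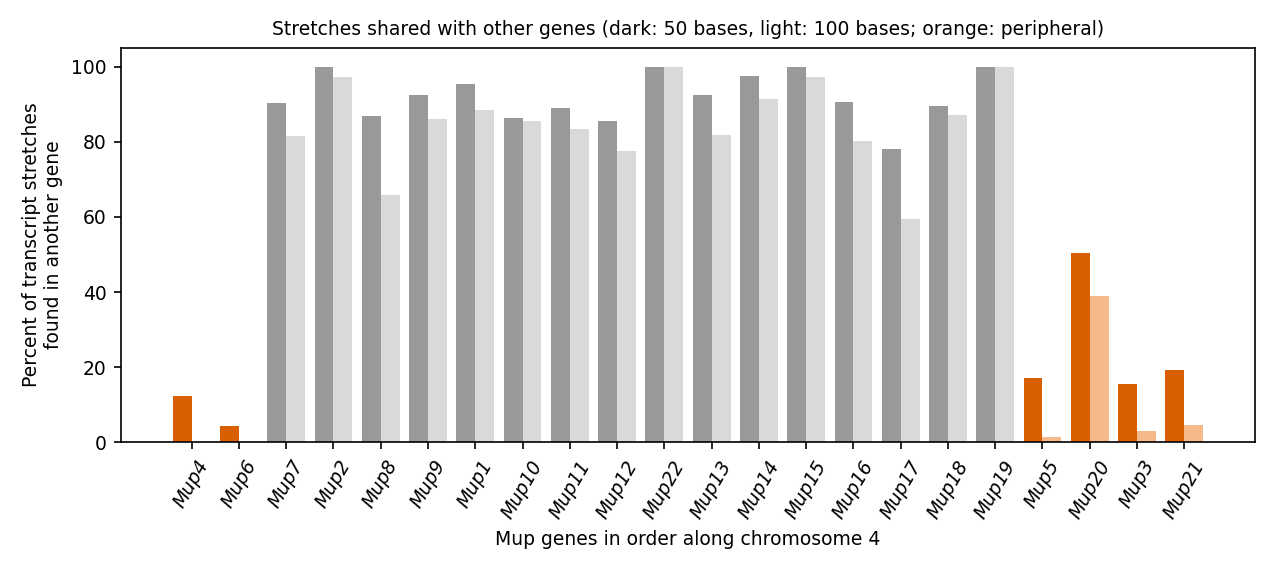
Share of each Mup transcript's 50-base (dark bars) and 100-base (light bars) stretches that recur in another annotated gene, in percent, with genes in order along chromosome 4 and the 6 peripheral genes in orange. The central genes lie at 59.4% or more by either measure, and *Mup20* is the highest peripheral gene at 50.5% and 38.8%.

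*Mup20* encodes darcin, the male urinary protein known to attract females and to hold the pheromone thiazole. In WT males it stood at 7821, 8091 and 13937 TPM, and in WT females at 94.2, 116 and 101 TPM. In KO males it was at 3775, 7848 and 4097 TPM, and in KO females at 1496, 1757 and 1824 TPM. Every KO female was thus far above every WT female, whereas the highest KO male reached just above the lowest WT male. The KO females remained below all males of either genotype.

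In females *Mup20* rose in KO, from 104 ± 11.1 to 1692 ± 174 TPM (mean ± SD, n = 3), a 16.3-fold ratio of means. The limma difference was 4.01 on the log2(TPM + 1) scale (95% interval 3.42 to 4.61, adjusted p = 4.16e-07). In males it was lower in KO, 5240 ± 2264 against 9949 ± 3456 TPM (mean ± SD, n = 3). The difference was -0.95 (95% interval -1.55 to -0.36, limma adjusted p = 0.0142), and the ranges overlapped. That male call was lost without WT male replicate 3 (-0.68, adjusted p = 0.0536), without KO male replicate 1 (-0.76, 0.0581), without KO male replicate 3 (-0.82, 0.0621) and with males fitted alone (-0.95, 0.0569). Averaged over the sexes, the difference was 1.53 and did not pass (limma adjusted p = 0.0811). Without WT male replicate 3 it became 1.93 (limma adjusted p = 0.0316) and without KO male replicate 1 it was 1.89 (0.0387). The male effect minus the female effect was -4.97 (SE 0.390, limma adjusted p = 1.09e-05).

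*Mup3* was the most abundant member in WT livers of both sexes and came after *Mup20* in KO livers. It stood at 14927, 11388 and 16881 TPM in WT males and at 5333, 5413 and 5676 TPM in WT females. In KO males it was at 116, 146 and 82.1 TPM, and in KO females at 68.7, 47.1 and 49.7 TPM. All 6 KO livers lay far below all 6 WT livers, and neither genotype had males and females that overlapped.

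*Mup3* fell 125-fold in males and 99.2-fold in females by the ratio of means. The limma differences were -6.98 (SE 0.219, adjusted p = 7.86e-10) and -6.63 (SE 0.219, adjusted p = 5.60e-10). The male effect minus the female effect was -0.35, with a 95% interval of -1.02 to 0.32 (limma adjusted p = 0.751), so no sex difference in the fall was detected within that interval. In overall abundance *Mup3* ranked 9th among all genes in WT males by mean TPM, 24th in WT females, 984th in KO males and 1814th in KO females. *Mup20* ranked 20th in WT males and 22nd in KO males, against 988th in WT females and 64th in KO females.

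*Mup21*, the last gene of the array and the closest relative of *Mup3*, is far less abundant. WT males had 483, 881 and 706 TPM and WT females 17.2, 23.8 and 16.1 TPM. KO males had 10.8, 9.65 and 10.2 TPM and KO females 4.76, 2.45 and 6.36 TPM. The 4 groups did not overlap, and KO males lay below WT females.

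*Mup21* fell 67.5-fold in males (limma difference -5.90, SE 0.272, adjusted p = 1.38e-08) and 4.21-fold in females (-1.91, SE 0.272, adjusted p = 2.01e-04). The fall was larger in males, by -4.00 on the log2(TPM + 1) scale (SE 0.385, limma adjusted p = 7.27e-05). KO males also differed from WT females, by -0.82 (limma adjusted p = 0.0321). The ratio of *Mup3* to *Mup21* levels was 12.9 to 30.9 in WT males and 227 to 354 in WT females, but 8.07 to 15.2 in KO males and 7.81 to 19.2 in KO females. WT females thus stood apart from the other 3 groups in the balance of these paired genes. Of the 50-base stretches of *Mup21* 17.8% recurred in *Mup3*, and of the 100-base stretches 4.50%. How many reads of *Mup3* this adds to *Mup21*, above all in WT females, was not tested.

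The 250 bases before the RefSeq start of *Mup3* and *Mup21* are shown because these neighbours fell together but differed in their sex bias. They come from RefSeq (GRCm38.p6, minus strand, read in the direction of transcription), at chr4:62087318-62087567 and chr4:62150842-62151091, and capitals mark bases that differ or have no partner between them. The GENCODE starts given above lie further upstream, so the last bases of each window fall inside the GENCODE gene.
Mup3: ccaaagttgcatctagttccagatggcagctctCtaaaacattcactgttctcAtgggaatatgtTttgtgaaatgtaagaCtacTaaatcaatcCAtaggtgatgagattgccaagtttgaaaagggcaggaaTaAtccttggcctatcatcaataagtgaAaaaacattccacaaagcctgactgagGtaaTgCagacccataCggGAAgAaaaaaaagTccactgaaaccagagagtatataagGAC
Mup21: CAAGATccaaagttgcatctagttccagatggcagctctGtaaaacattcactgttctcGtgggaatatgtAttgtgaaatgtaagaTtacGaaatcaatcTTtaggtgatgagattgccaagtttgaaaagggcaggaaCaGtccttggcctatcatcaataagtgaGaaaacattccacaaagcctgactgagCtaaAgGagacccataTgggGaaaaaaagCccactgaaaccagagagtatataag
Over 244 aligned bases the sequences were 93.4% identical. The STAT5 motif TTCNNNGAA, which reads the same on both strands, was found in none of the 14 Mup upstream sequences in the RefSeq table, 4 of them from members, and in 7.04% of all 32536 such windows. At that share few or none would be expected among 14 windows, several of them near-copies, so no conclusion is drawn from it. *Mup20* and *Mup5* had no matched entry.

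*Mup4*, *Mup5* and *Mup6* were at or near the limit of detection. *Mup4* and *Mup5* are better known from secretory glands of the head than from liver. *Mup4* was listed at 0 in all 12 libraries, and 3 reads would have been 0.231 to 0.373 TPM. The values of the members were whole multiples of a step per library to within 0.1 of a read after scaling by annotated length, so they can be read as counts. Of 7 salivary and lacrimal markers in the table, 5 were at 0 in every library and *Aqp5* was at 0.198 TPM or less. *Amy1*, an amylase gene that liver also expresses, had means of 80.2 TPM in WT males, 91.8 in WT females, 67.1 in KO males and 63.7 in KO females, and was lower in KO over both sexes (-0.38, limma adjusted p = 0.00846).

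*Mup5* stood at 0.197, 0.0881 and 1.32 TPM in WT males and at 2.10, 1.22 and 0.768 TPM in WT females. It was at 0.230 TPM in 1 KO male and listed at 0 in the other 5 KO livers. This is 61 reads in WT against 2 in KO, a depth-adjusted ratio of 25.4 with an exact 95% counting interval of 6.72 to 214, which leaves out variation between mice. Of the 50-base stretches of *Mup5* 6.96% recurred in central Mup genes, and of those of *Mup6* 0.456%. The central genes were far more abundant in WT than in KO, and how many WT reads of *Mup5* or *Mup6* came from them was not tested. *Mup5* was the one member with a higher mean in WT females than in WT males, but those groups overlapped. *Mup6* was at 0.365, 0.733 and 0.383 TPM in WT males and at 0.388, 0.189 and 0.284 TPM in WT females, and was listed at 0 in all 6 KO livers. Its 28 WT reads against 0 make it at least 7.76-fold higher in WT, taking 3 reads over the KO group as the floor.

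Both genes had mean levels under the 0.5 TPM needed for the test, so 3 of the 6 members were tested. With no filter, limma gave *Mup6* a difference of -0.47 over both sexes (adjusted p = 1.57e-04) and *Mup5* one of -0.82 (adjusted p = 0.00922), values that the pseudocount of 1 holds close to 0. *Mup6* passed in each sex, whereas *Mup5* passed in females (-1.20, limma adjusted p = 0.00782) and not in males (-0.43, 0.249). In the authors' deposited table *Mup6* has a log2 fold change of -5.98 and *Mup5* one of -3.57, each with an FDR p-value of 0.01. The same table gives -7.65 for *Mup3* and -6.61 for *Mup21*, with FDR p-values printed as 0, and -1.69 for *Mup20* (FDR p-value 0.12). For *Mup20* the sign in the authors' deposited table is thus opposite to that of the log-scale average over sexes above, and the mean TPM over 6 livers was 5027 in WT and 3466 in KO.

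**Figure D2:**
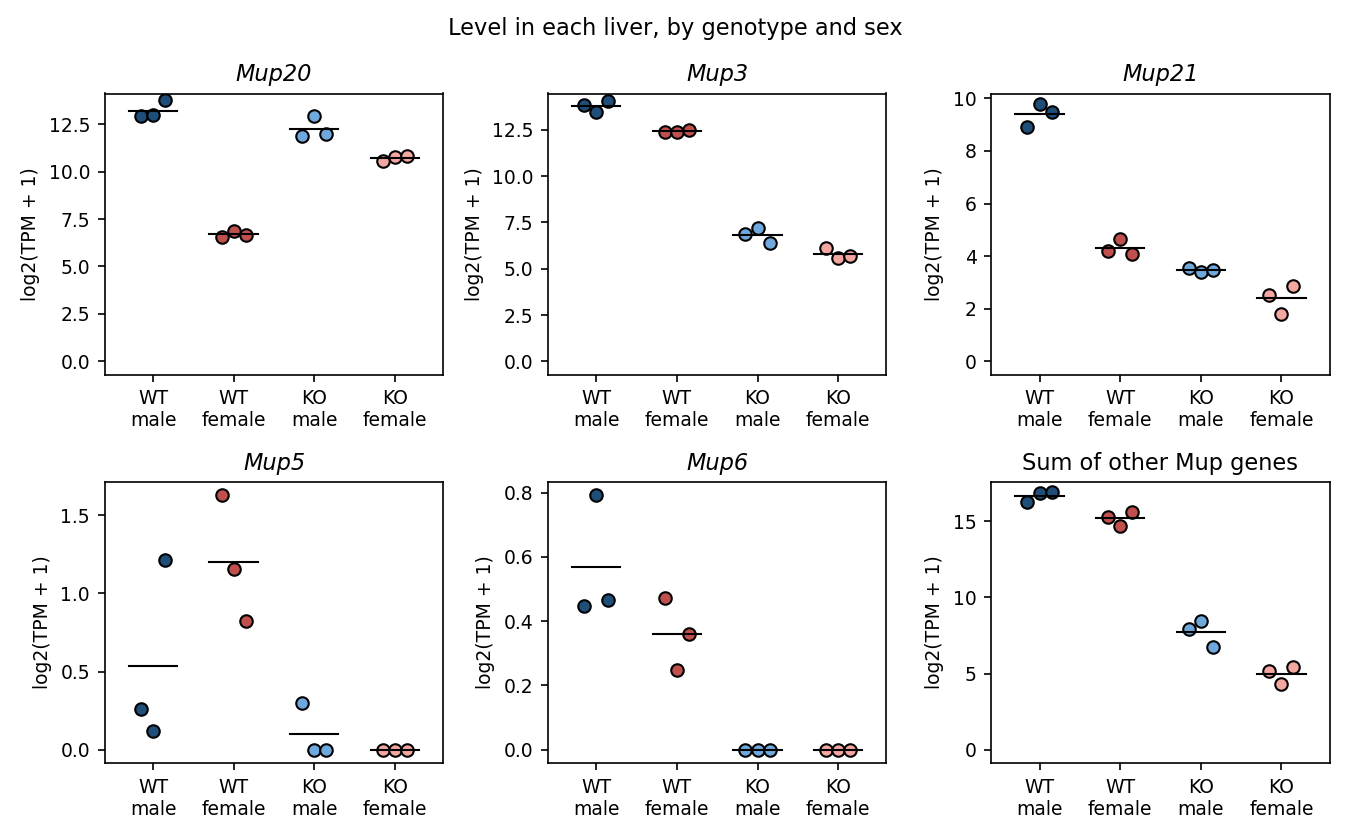
Level of each detected peripheral Mup gene and of the summed 16 other Mup genes in every liver, as log2(TPM + 1), with points for mice and lines for group means (n = 3 each). *Mup20* is the one panel in which the KO females lie above the WT females, and *Mup5* and *Mup6* stay below 2.2 TPM in every liver.

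The 16 central genes gave the background for these patterns. Their summed level was 77129, 119503 and 126090 TPM in WT males and 40397, 25831 and 49418 TPM in WT females. It was 238, 356 and 108 TPM in KO males and 34.7, 18.9 and 41.5 TPM in KO females. On the log2 scale the sum differed by -9.59 (two-sided exact permutation p = 0.005, the smallest this design can give), -8.97 in males and -10.22 in females. Each of the 16 had every KO value under every WT value, and none had a higher mean in KO females than in WT females. All 16 were called lower over both sexes by limma, as were 4.82% of all tested genes. *Mup22*, the most abundant in WT females, went from 28037, 20789 and 34832 TPM in WT females to 21.8, 10.6 and 20.4 TPM in KO females. Levels of single central genes are uncertain because of shared reads, so the 16 are not separate observations.

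The make-up of the Mup transcript pool therefore differed between genotypes. The 6 peripheral genes held 19.2 ± 4.35% of summed Mup TPM in WT males and 13.4 ± 3.82% in WT females, against 95.8 ± 1.61% in KO males and 98.2 ± 0.649% in KO females (mean ± SD, n = 3). *Mup20* alone held 91.2% to 96.2% in the KO livers, 5.78% to 8.84% in WT males and 0.184% to 0.370% in WT females. *Mup3* held 8.14% to 17.2% in WT and 1.75% to 4.28% in KO. Against the summed central genes, *Mup20* was at a ratio of 0.0677 to 0.111 in WT males and 0.00205 to 0.00449 in WT females, and at 15.9 to 37.8 in KO males and 43.2 to 92.8 in KO females. All Mup genes together made up 13.3% of library TPM in WT males and 4.41% in WT females, and 0.560% and 0.178% in KO males and females.

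**Figure D3:**
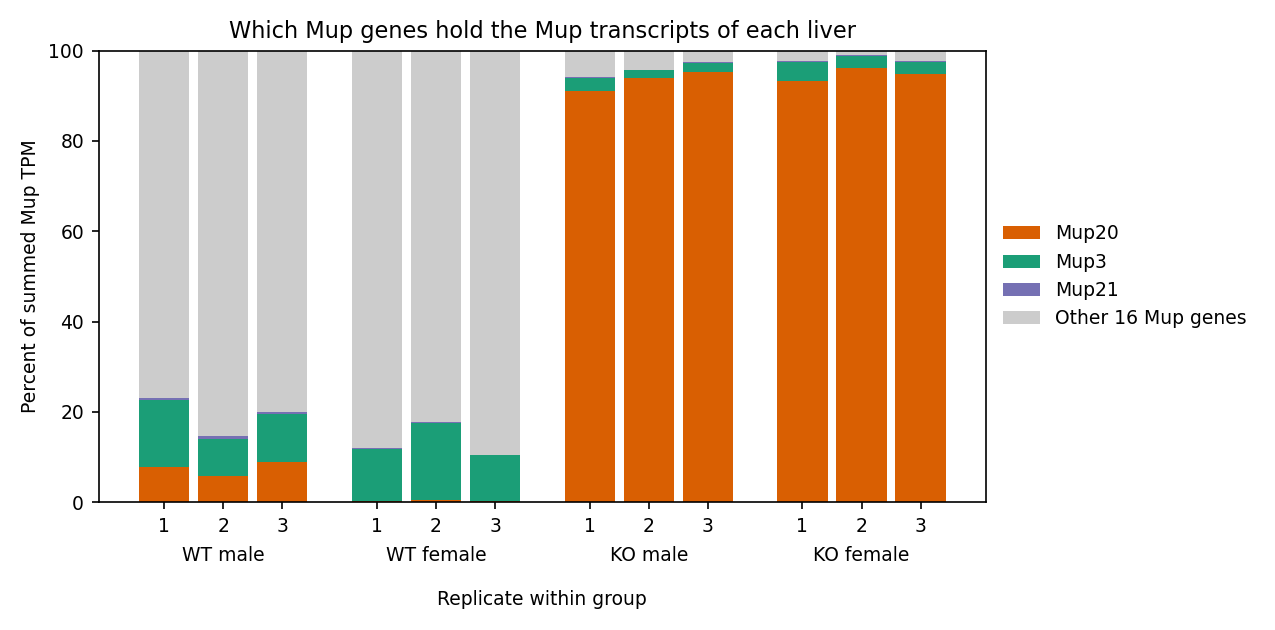
Percent of the summed TPM of all 22 Mup genes held by *Mup20*, *Mup3*, *Mup21* and the 16 other Mup genes in each liver, 1 stacked bar per mouse. *Mup20* fills 91.2% or more of every KO bar and at most 8.84% of any WT bar.

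The tested members all moved one way in males and split by gene in females. In males all 3 were lower in KO, where 46.1% of all tested genes differed, 2.81% lower and 43.3% higher. In females 2 were lower and *Mup20* was higher, where 33.8% of all tested genes differed, 4.68% lower and 29.1% higher. All 16 central genes were lower in both sexes. The interaction was past the threshold for 2 of the 3 members, *Mup20* and *Mup21*, and for 0.912% of all tested genes (0.326% with a lower and 0.586% with a higher male effect). Among the central genes it passed for 6 of 16, with 5 lower and 1 higher, the latter lost under median-of-ratios rescaling.

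The sex difference was examined in each genotype, since male bias is the known feature of this family. In WT all 3 tested members were higher in males, as were 1.14% of all tested genes, while 4.6% were lower and 5.74% differed in either direction. Of the genes called here 19.9% were higher in males, against 48.5% after median-of-ratios rescaling, and for the interaction the higher share went from 64.3% to 53.4%. The ratio of mean TPM was 95.8 for *Mup20*, 36.3 for *Mup21* and 2.63 for *Mup3*. The limma differences were 6.52 (SE 0.276, adjusted p = 5.81e-09), 5.09 (SE 0.272, adjusted p = 7.48e-08) and 1.38 (SE 0.219, adjusted p = 0.00262). Of the central genes, 7 of 16 passed as higher and 1 as lower in WT males.

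In KO none of the 3 tested members passed for a sex difference, and 0.0814% of all tested genes did, 0.057% higher and 0.0244% lower in males. In each tested member the 3 KO males lay above the 3 KO females. How many of all tested genes separate in this way was not counted. The ratios of means were 3.10 for *Mup20*, 2.26 for *Mup21* and 2.08 for *Mup3*. The limma differences were 1.55 (95% interval 0.96 to 2.15, adjusted p = 0.0938), 1.09 (0.50 to 1.68, adjusted p = 0.611) and 1.03 (0.55 to 1.50, adjusted p = 0.283). All 3 had unadjusted limma p-values under 0.05, the largest being 0.00159 for *Mup21*. The share of all tested genes under that cut was not counted, so these p-values do not show a sex difference in KO. Without WT male replicate 3, which feeds the shared spread, *Mup20* passed (1.55, limma adjusted p = 0.0359). The central gene *Mup22* was past the threshold here (2.92, limma adjusted p = 0.00646).

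Comparing groups across sex placed the KO levels on the WT scale. *Mup20* in KO females was below WT males by a log2 difference of -2.51 (limma adjusted p = 1.81e-05), and in KO males it was above WT females by 5.57 (limma adjusted p = 1.88e-08). In the first of these comparisons 47.8% of tested genes differed, 3.09% lower and 44.7% higher, and all 3 tested members were lower. In the second 37.6% differed, 5.91% lower and 31.7% higher, with *Mup20* higher and *Mup3* and *Mup21* lower. The order of *Mup20* levels was WT males, KO males, KO females and WT females, and the first neighbours in that order overlapped in range.

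**Figure D4:**
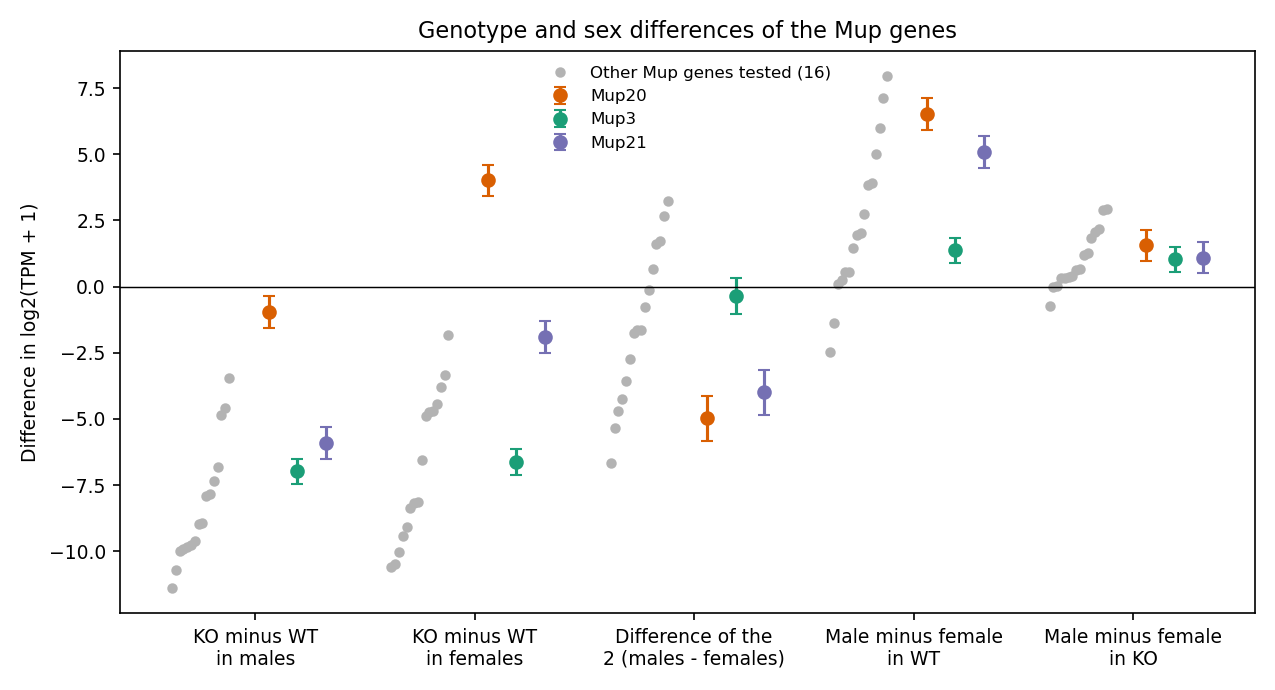
Differences in log2(TPM + 1) for the 3 tested peripheral genes (coloured points with 95% intervals, limma) and the 16 other Mup genes (grey points, sorted) for the genotype effect in each sex, the difference between these effects, and the sex difference in each genotype. *Mup20* in females, at 4.01, is the one Mup gene above 0 among the genotype effects within a sex.

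Genes whose profile over the 12 livers was most like each member were found by Pearson correlation of log2(TPM + 1), given as a description because livers share group and depth. For *Mup3* these were *Slco1a1*, an organic anion uptake transporter (r = 0.991), *Slc22a30* (0.990) and *Ces3b*, a carboxylesterase (0.988). For *Mup21* they were *Nat8* (0.984), *Ugt2b38*, a glucuronosyltransferase (0.973), and *Serpina12* (0.972). For *Mup20* they were *Aox3*, an aldehyde oxidase (0.955), and the complement components *C8a* (0.947) and *C9* (0.932). The means of *Aox3* were 237 TPM in WT males, 64.1 in WT females, 171 in KO males and 140.1 in KO females, the order seen for *Mup20* over a narrower span.

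The other genes known as higher in male liver mostly fell in KO males and were mixed in females. Of 14 tested, 12 were lower and 1 higher in KO males (2.81% and 43.3% of all tested genes), with a median difference of -4.30 against 0.44 for all tested genes, and the 1 higher no longer passed under either rescaling. In females 6 were lower and 4 higher (4.68% and 29.1% of all), with a median of -0.82 against 0.27. On this scale the 4 higher were near the share of all tested genes. The largest changes over both sexes were the falls of *Slco1a1* (-6.18), the protease inhibitor gene *Serpina1e* (-5.93) and the steroid dehydrogenase gene *Hsd3b5* (-5.65). The 4 that rose in females, named after their values were seen, were *C6*, a complement component (4.04, limma adjusted p = 1.05e-08), *Cyp2d9* (2.05), *Gstp1* (1.87) and *Cyp4a12b* (1.52). *C6* went from 8.73 TPM in WT females to 159 TPM in KO females, with 166 TPM in WT males and 247 TPM in KO males.

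In WT 13 of these 14 genes were higher in males, and in KO 2 were, against 1.14% and 0.057% of all tested genes. Their interaction passed in 10 of 14, all with a lower male effect (0.326% of all tested genes), as for *Mup20* and *Mup21*. Cytochrome P450, *Serpina1* and *Gstp* genes also have close copies, and their single values are uncertain.

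Of 19 genes of growth hormone signalling and transcription factors known to act on Mup genes, all tested, 4 were higher and 4 lower over both sexes, against 50.1% higher and 4.82% lower among all tested genes. They had a median of -0.12 against 0.35 for all tested genes. Among those that fell were *Igfals* (-1.60), a growth hormone target, and *Ghr* (-1.06), the growth hormone receptor. After median-of-ratios rescaling the counts were 0 higher and 8 lower. *Stat5b* rose by 0.61 (limma adjusted p = 0.0115), which rescaling brought to 0.16 (adjusted p = 0.555). *Zhx2*, a regulator of Mup genes in adult liver, differed by 0.25 (limma adjusted p = 0.141) and by -0.16 after rescaling (adjusted p = 0.346). *Ghr* was at a mean of 218 TPM in WT males and 182 in WT females, and at 96.9 and 94.9 TPM in KO males and females.

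Of 9 other secreted lipocalins tested, 6 were higher and 2 lower in KO over both sexes, where 50.1% of all tested genes were higher and 4.82% lower. Their median was 1.02 against 0.35. After median-of-ratios rescaling 5 were higher and 3 lower over both sexes, and 2 higher and 2 lower in females. *Lcn2*, an iron-siderophore carrier of acute inflammation, rose by 6.06, and the orosomucoid genes *Orm2* and *Orm3* rose by 4.99 and 2.58. Of the 3 nearest measured genes on each side of the array, *Zfp37* and *Slc46a2* were below the level needed for the test, and none of the others passed as lower over both sexes. *Fkbp15*, beyond *Mup21*, rose in KO (0.78, limma adjusted p = 6.39e-05), and so did *Slc31a2* (0.45, limma adjusted p = 0.0295), a call that median-of-ratios rescaling ended (0.06, adjusted p = 0.778), while *Zfp37* had mean levels of at most 0.395 TPM in any group. On the side of *Mup4*, *Snx30* was higher in KO (0.48, limma adjusted p = 0.00636; 0.14 and 0.358 after that rescaling). *Inip* differed by 0.20 (limma adjusted p = 0.355), or by -0.10 after it, and *Slc46a2* was at 0.00901 TPM or less on average in every group.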

How the data were processed

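Liver RNA-seq of 12 mice in 4 groups of 3 was used, 1 library per mouse. TPM values came from the table deposited by the authors, in which each column sums to 1000000. The submitters' processing notes name GRCm38 and edgeR. The aligner, counter, annotation, strand and read length are not given in the sources used here. The authors' deposited KO against WT comparison (signed fold, log2 fold change and FDR p-value to 2 decimals, per the file headers) was read for comparison only.

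TPM were analysed as log2(TPM + 1). Genes with a mean of at least 0.5 TPM (12278) were tested with limma 3.58.1 in R 4.3.3 (lmFit, eBayes with trend), two-sided, Benjamini-Hochberg over all tested genes, threshold 0.05. Genotype over both sexes used sex as a covariate. Other comparisons came from 1 model of 4 group means. This scale understates changes of low genes. The summed TPM of the other Mup genes was tested by exact permutation of genotype within sex (400 arrangements). The procedure was tested on simulated data.

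Positions, transcripts and coding sequences came from GENCODE mouse release 21 (GRCm38), and upstream sequences from RefSeq. The bases after each start are not shown. Precision is limited by 3 mice per group, and intervals on reads cover counting error only. The members and gene lists were chosen with earlier results of these data known. Named besides the members were the central Mup gene with the highest WT mean, the 3 most correlated genes per tested member, 3 neighbours on each side, the 3 largest called changes per list (1 of which is not reported here), *Stat5b*, *Zhx2* and *Yap1*. *Mup7*, *Socs2*, *Cish* and the markers *Ttr*, *Spp1*, *Epcam*, *Lrat*, *Aqp5* and *Amy1* were named after their values were seen. Alternatives were another pseudocount, no filter, 2 rescalings, fits of 2 groups and leaving out each mouse.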

Additional observations from a re-analysis of the deposited data

Results flagged for a closer look

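For *Mup20* the genotype effect differed between the sexes: it was -0.95 in males and 4.01 in females on the log2(TPM + 1) scale, a difference of -4.97 by the limma interaction term (adjusted p = 1.09e-05). All 3 KO females were higher than all 3 WT females, while 2 of the 3 KO males were lower than all 3 WT males.

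For *Mup21* the fall in KO differed in size between the sexes, -5.90 in males and -1.91 in females, a difference of -4.00 (limma adjusted p = 7.27e-05). WT females started near 19.02 TPM and WT males near 690.1 TPM, and the KO groups reached 4.52 and 10.2 TPM.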

How the results depend on the processing

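No paired analysis was possible because the replicate numbers are accession order only and pair no mice. For the tested members, *Mup3* and *Mup21* kept their direction and their side of the threshold in all 6 comparisons under every alternative run. *Mup20* kept its direction throughout, and its calls in males, over both sexes and between KO sexes changed as given above. With no filter, 4 members were called over both sexes and 5 in females, because *Mup5* and *Mup6* were then tested. Leaving out single mice gave 2 to 4 members called over both sexes and 0 to 1 between KO sexes, the 4 coming without KO male replicate 1 and the 1 without WT male replicate 3. Among all genes, the male genotype effect had 2932 calls after median-of-ratios rescaling and 3697 after rescaling without the Mup genes, against 5663. The sex difference in WT had 705 calls, 455 after rescaling without the Mup genes, 399 with WT fitted alone and 845 with a pseudocount of 0.1. Leaving out single mice gave 290 (without WT male replicate 2) to 1696 (without WT male replicate 3), and the other 4 WT mice gave 302 to 446. The same gave 6 to 10 calls between KO sexes, the 6 without KO male replicate 2, and 75 to 176 for the interaction, the 176 without WT male replicate 3. The difference of the summed central genes was -10.05 to -7.51 under other scalings and the mean of logs, and -9.78 to -9.36 with single mice left out, with an exact permutation p of 0.005 each time. Values of *Mup5* and *Mup6* rest on 20 reads or fewer per library. Splits between near-identical genes, reads of *Mup-ps19*, and the number of cells of each type limit what these levels show.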
